A study of Drosophila melanogaster with 6 samples.

Results

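The genes esg, Dl, mira, zfh2, hdc, Sox21a, Sox100B and klu mark or maintain stem and progenitor cells of the fly gut, and these 8 were followed through 6 RNA-seq libraries of sorted escargot-positive cells. They were taken by gene symbol with upper and lower case kept apart, because hdc (headcase) and Hdc, and Dl (Delta) and dl, are different genes. All 8 were found among the 15603 genes listed.

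The midgut of adult Drosophila is renewed by intestinal stem cells (ISCs), which divide to give a new stem cell and a daughter called an enteroblast (EB). The ISC carries the ligand Delta on its surface, Delta activates the receptor Notch in the EB, and strong Notch signalling sends the EB towards the absorptive enterocyte fate. Both cell types express escargot, and a small group of transcription factors and fate regulators decides whether such a cell stays undifferentiated, divides or matures.

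The study asked how these cells respond to protein aggregates and to loss of proteasome function, and whether the response depends on CncC, the fly relative of the transcription factor Nrf2. All flies were 7-day-old mated females carrying esgGal4ts, that is esg::Gal4 with a temperature-sensitive Gal80, and a GFP reporter, so that transgenes were active only in escargot-positive cells and only at 29 °C. Rpn3RNAi flies (attP2, esgGal4ts > Rpn3RNAi), in which a lid subunit of the proteasome was targeted, and their attP2 controls (attP2, esgGal4ts > +) spent 4 days at 29 °C. CncCRNAi+HttQ138 flies expressed an RNAi construct against CncC together with mRFP-HttQ138, an aggregation-prone human Huntingtin, and were compared with CncCRNAi flies carrying the construct alone. HttQ138 flies expressed the aggregating protein without RNAi and were compared with w1118 flies (esgGal4ts > +), and all 4 of these conditions spent 2 days at 29 °C. Each condition was 1 library made from about 100 pooled guts, in which 16611 to 62921 cells were sorted. The driver, the reporter and the sorting gate all rest on the escargot promoter, so the level of esg is not independent of how the cells were chosen, and the 2 RNAi constructs sit in different genetic backgrounds.

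Values are deposited FPKM (fragments per kilobase of transcript, scaled to the mapped fragments of the library). Steps in the low values gave 2780000 to 3630000 fragments per library, and the 95% intervals below are exact binomial intervals on fragments recovered in this way. They cover counting error only: each condition is 1 library, no difference between conditions was tested, and the spread between flies or sorts is not known. The cnc gene was at 75.6 FPKM in CncCRNAi+HttQ138 and 60.7 FPKM in HttQ138, and at 64.4 FPKM in CncCRNAi and 63.8 FPKM in w1118, so the knockdown cannot be seen in the level of the whole gene. CncC is 1 of the protein isoforms of cnc and a gene-level value does not separate them, so this does not show whether CncC itself was lowered, and these are written here as the libraries labelled CncCRNAi+HttQ138 and CncCRNAi. Rpn3 was at 63.2 FPKM in Rpn3RNAi and 77.1 FPKM in attP2, a ratio of 0.820 (95% interval 0.700 to 0.956).

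The 8 genes differed widely in level, and 7 of them reached 10 FPKM in all 6 libraries. In 4 libraries esg was the highest, and in the libraries labelled CncCRNAi+HttQ138 and CncCRNAi Sox100B stood above it. Sox21a was the third in 5 libraries, while in w1118 mira stood above it, and klu, zfh2 and hdc changed places further down. Dl was the lowest of the 8 throughout. Neighbours in this order often could not be separated: the counting intervals of esg and Sox100B overlapped in attP2 and in the library labelled CncCRNAi+HttQ138, those of hdc, mira and klu overlapped one after the other in HttQ138, and those of zfh2, klu and hdc did so in the library labelled CncCRNAi.

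**Figure D1:**
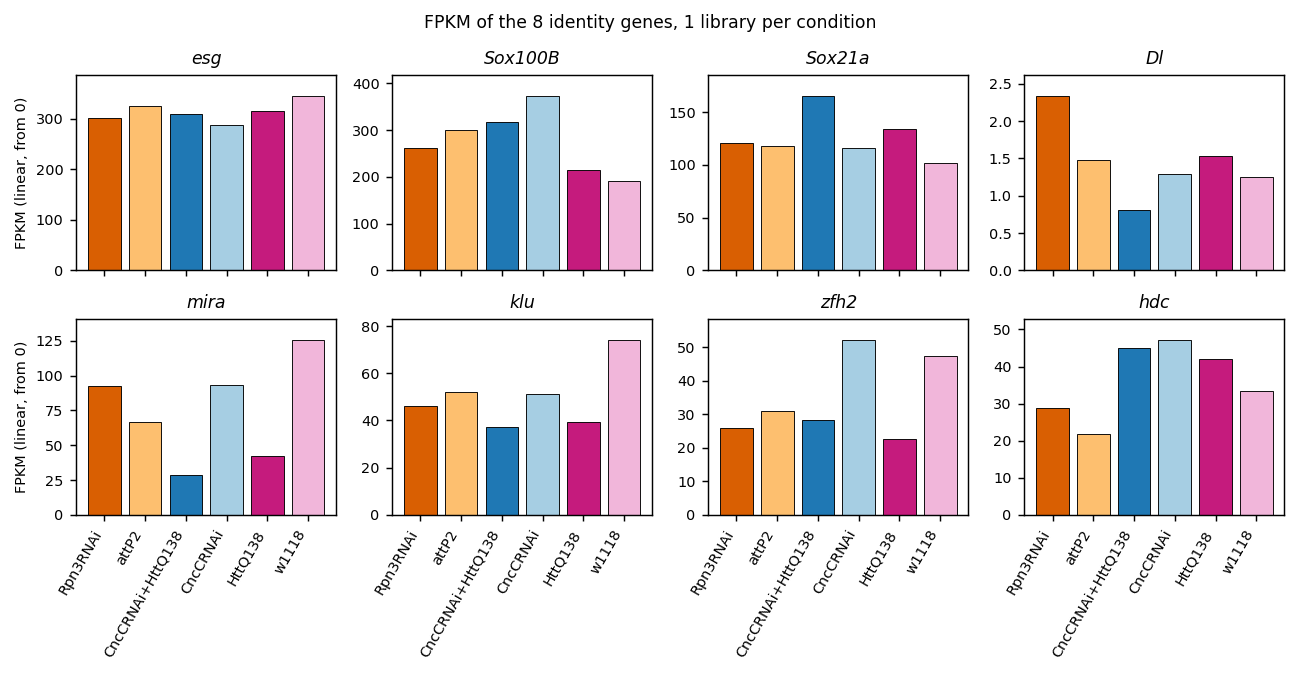
FPKM of each of the 8 genes (vertical axis, linear from 0, a scale of its own for each gene) in the 6 libraries (horizontal axis), with 1 bar per library and each stressed library left of its control. The bars of esg are nearly level, those of mira run between 28.9 and 126 FPKM with the 2 HttQ138-expressing libraries lowest, and those of Dl stay below 2.5 FPKM.

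The Snail-family repressor esg (FBgn0001981, chromosome arm 2L), which keeps progenitors undifferentiated, had 302 FPKM in Rpn3RNAi, 325 FPKM in attP2, 310 FPKM in the library labelled CncCRNAi+HttQ138, 287 FPKM in the library labelled CncCRNAi, 315 FPKM in HttQ138 and 346 FPKM in w1118. The highest of these was 1.21-fold above the lowest, and of the 5416 genes with a mean of at least 10 FPKM, 98.5% had a wider range. It lay between the 207th and the 265th gene of its library by FPKM. The ratio was 0.910 (0.858 to 0.966) for HttQ138 over w1118, 0.930 (0.875 to 0.989) for Rpn3RNAi over attP2 and 1.08 (1.02 to 1.15) for CncCRNAi+HttQ138 over CncCRNAi, and the second of these passed to just above 1 when the libraries were rescaled, with a log2 ratio of 0.02 by the common sum and 0.07 by the median ratio. In a bulk sample, fewer cells of a type and less RNA per cell cannot be told apart, and this holds for each gene described here.

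Sox21a (FBgn0036411, 3L) is a SoxB factor that ISCs need to proliferate and EBs need to differentiate. It had 121 FPKM in Rpn3RNAi, 118 FPKM in attP2, 166 FPKM in the library labelled CncCRNAi+HttQ138, 116 FPKM in the library labelled CncCRNAi, 134 FPKM in HttQ138 and 102 FPKM in w1118. In the deposited values both libraries with HttQ138 were above all 4 without it, which 6.65% of the 5416 genes also showed. The pattern is lost by the common sum, where Rpn3RNAi stands above HttQ138, as its summed FPKM was 639046 against 763890. The ratio was 1.31 (1.18 to 1.45) for HttQ138 over w1118 and 1.43 (1.31 to 1.56) for CncCRNAi+HttQ138 over CncCRNAi, both under the 1.5-fold used here to call a change, and 1.03 (0.930 to 1.13) for Rpn3RNAi over attP2. With w1118 as the control, CncCRNAi+HttQ138 was at 1.62 (1.48 to 1.78).

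A change was called at 1.5-fold or more with at least 10 FPKM in the higher library, and 3-fold, the study's own threshold, was looked at beside it. In HttQ138 against w1118, 3 members fell and 0 rose among the 7 that reached 10 FPKM, where 16% of all 5563 genes tested fell and 12% rose. The 3 were mira, zfh2 and klu. At 3-fold the counts were 0 in either direction, against backgrounds of 1.73% lower and 3.58% higher. Between CncCRNAi+HttQ138 and CncCRNAi, 2 members fell, mira and zfh2, and 0 rose, against 12% and 5.16% of 5703 genes. There mira also passed 3-fold, as 1.35% of genes did. In Rpn3RNAi against attP2, 0 members rose and 0 fell, while 14.9% of 5864 genes rose and 17.6% fell, and at 3-fold the counts were again 0, against 6.94% higher and 1.86% lower. The 3 of 7 in HttQ138 is a larger share than the 16% of all genes and the 2 of 7 a larger one than 12%, but these counts rest on 2 or 3 genes and were not tested.

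The calls of mira, zfh2 and klu in HttQ138, and those of mira and zfh2 in CncCRNAi+HttQ138, held when the libraries were rescaled to a common sum or by the median ratio over genes. Some other splits of higher and lower calls did not. By the median ratio, Rpn3RNAi against attP2 had mira and hdc higher and 0 lower, where the background became 20% higher and 10.7% lower, and by the common sum it had mira alone higher, with 19.8% and 11.9%. By the median ratio, Sox21a rose in CncCRNAi+HttQ138 against CncCRNAi, with 6.75% of genes higher and 8.32% lower, and the background of HttQ138 against w1118 became 14.7% higher and 12.5% lower.

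The median log2 ratio of FPKM + 1 over the 8 genes was 0.02 in HttQ138 against w1118, where the median over all genes with a mean of at least 10 FPKM was -0.07. It was -0.03 against -0.13 for all genes in Rpn3RNAi over attP2. In CncCRNAi+HttQ138 over CncCRNAi it was -0.29, against -0.11 for all genes. Leaving out Dl, which did not reach 10 FPKM, the median of the other 7 was -0.14 in HttQ138, -0.10 in Rpn3RNAi and -0.23 in CncCRNAi+HttQ138, so that in HttQ138 it lay above the median of all genes with Dl and below it without. In HttQ138 4 members, Dl among them, were above their w1118 value and 4 below it, and in CncCRNAi+HttQ138 2 were above their CncCRNAi value and 6 below it.

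**Figure D2:**
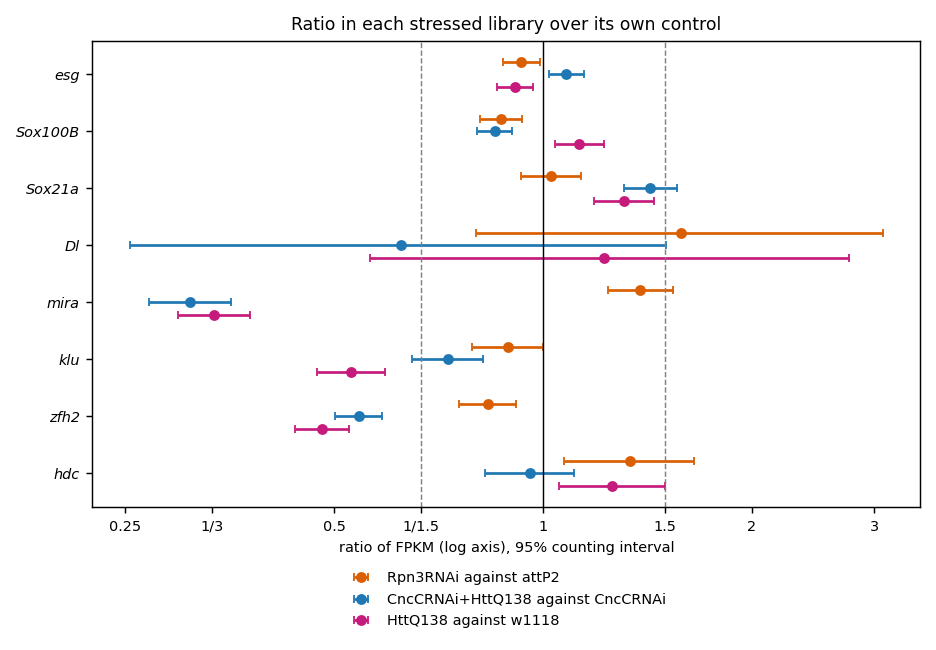
Ratio of FPKM in each stressed library over its own control (horizontal log axis) for the 8 genes (rows), with points for the ratio, bars for the 95% counting interval, a solid line at no difference and dashed lines at 1.5-fold. The mira points lie at 0.309 and 0.335 in the HttQ138 comparisons and at 1.38 in Rpn3RNAi, zfh2 lies below the lower dashed line in both HttQ138 comparisons, and the Dl bars all cross 1.

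The widest range among the 7 abundant genes belonged to mira (FBgn0021776, 3R). Miranda is an adaptor protein known from neuroblasts, where it carries fate determinants such as Prospero and Brat into one daughter of an asymmetric division. Its level was 92.2 FPKM in Rpn3RNAi, 66.8 FPKM in attP2, 28.9 FPKM in the library labelled CncCRNAi+HttQ138, 93.2 FPKM in the library labelled CncCRNAi, 42.1 FPKM in HttQ138 and 126 FPKM in w1118. Both libraries with HttQ138 were below all 4 without it, a pattern that 12.2% of the 5416 genes shared in the same direction. The highest was 4.35-fold above the lowest, and 10.01% of genes had a wider range.

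Relative to its own control, mira was 2.98-fold lower in HttQ138 (95% interval 2.65 to 3.36) and 3.23-fold lower in CncCRNAi+HttQ138 (2.82 to 3.70). The log2 ratio of the second comparison minus that of the first was -0.10, which was not tested. The size of the fall depended on the control library taken, because the 3 control libraries themselves differed by 1.88-fold in mira. HttQ138 was 1.59-fold lower than attP2 (1.39 to 1.81) and 2.21-fold lower than CncCRNAi (1.96 to 2.50). In Rpn3RNAi mira was not lower than in attP2 but at a ratio of 1.38 (1.24 to 1.54), and against w1118 the same library was at 0.735 (0.667 to 0.809). Set against esg in the same library, mira amounted to 13.4% of the esg FPKM in HttQ138 and 36.3% in w1118, and to 9.31% in the library labelled CncCRNAi+HttQ138 and 32.5% in the one labelled CncCRNAi.

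Among the 12 genes of asymmetric division listed beside mira, which include its cargoes and the machinery that places them, 11 were found in the table, all but pins. In HttQ138 against w1118, 3 of the 8 that reached 10 FPKM fell and 0 rose, beside 16% and 12% of all genes. The largest fall was that of brat, a translational repressor carried by Miranda in neuroblasts, at 22.8 FPKM in HttQ138 and 51.5 FPKM in w1118, or 2.26-fold lower (1.98 to 2.58). The smallest shift there was that of baz, a polarity protein, with 59.1 FPKM in HttQ138 and 63.4 FPKM in w1118. In CncCRNAi+HttQ138 against CncCRNAi, 0 of 8 passed 1.5-fold in either direction, beside 12% of genes lower and 5.16% higher, brat standing at 34.6 FPKM against 46.1 FPKM and baz at 72.1 FPKM against 59.8 FPKM. In Rpn3RNAi against attP2, 1 of 9 rose and 1 fell, beside 14.9% and 17.6% of genes. The riser was aPKC, a polarity kinase, at 61.1 FPKM in Rpn3RNAi and 20.5 FPKM in attP2, a ratio of 2.98 (2.44 to 3.67). The attP2 value is the one that stands apart, since w1118 had 61.6 FPKM and attP2 was 3.00-fold lower than w1118 (2.47 to 3.69). The faller, spdo, a regulator of Notch in asymmetric divisions, had 4.84 FPKM in Rpn3RNAi and 10.1 FPKM in attP2. In attP2 it was above w1118 too, at a ratio of 3.16 (1.87 to 5.55).

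The zinc finger homeodomain factor zfh2 (FBgn0004607, chromosome 4), a transcription factor of gut progenitors, was at 25.9 FPKM in Rpn3RNAi, 31.1 FPKM in attP2, 28.3 FPKM in the library labelled CncCRNAi+HttQ138, 52.2 FPKM in the library labelled CncCRNAi, 22.8 FPKM in HttQ138 and 47.5 FPKM in w1118. The libraries w1118 and the one labelled CncCRNAi stood high, and the other 4 lay together below. HttQ138 was 2.08-fold lower than w1118 (1.91 to 2.28), and CncCRNAi+HttQ138 was 1.84-fold lower than CncCRNAi (1.71 to 1.99). The groups with and without HttQ138 overlapped, however, because the Rpn3RNAi value lay below that of the library labelled CncCRNAi+HttQ138, and HttQ138 was 1.37-fold lower than attP2 (1.24 to 1.501). Rpn3RNAi over attP2 was 0.832 (0.756 to 0.914), but with w1118 as the control Rpn3RNAi was 1.84-fold lower (1.68 to 2.01). Exons of zfh2 overlap those of Tdg in the annotation, and whether the counting used strand is not given in the sources used here, so part of these values may belong to the other gene.

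The third gene that fell was klu (FBgn0013469, 3L). Klumpfuss is a zinc finger factor of EBs that restrains the enteroendocrine fate. Its values were 46.3 FPKM in Rpn3RNAi, 52.1 FPKM in attP2, 37.3 FPKM in the library labelled CncCRNAi+HttQ138, 51.1 FPKM in the library labelled CncCRNAi, 39.2 FPKM in HttQ138 and 74.1 FPKM in w1118. The highest was w1118, and both libraries with HttQ138 were below all 4 others, as for mira. HttQ138 was 1.89-fold lower than w1118 (1.69 to 2.12), but 1.33-fold lower than attP2 (1.18 to 1.4996) and 1.305-fold lower than CncCRNAi (1.16 to 1.47). CncCRNAi+HttQ138 over CncCRNAi was 0.729 (0.648 to 0.820), short of the 1.5-fold call, and Rpn3RNAi over attP2 was 0.889 (0.790 to 1.00). With w1118 as the control Rpn3RNAi was 1.60-fold lower in klu (1.43 to 1.79) and CncCRNAi+HttQ138 1.99-fold lower (1.78 to 2.22).

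The ligand Dl (FBgn0000463, 3R), the classical marker of ISCs among escargot-positive cells, was near the limit of detection. It had 2.34 FPKM in Rpn3RNAi, 1.48 FPKM in attP2, 0.803 FPKM in the library labelled CncCRNAi+HttQ138, 1.29 FPKM in the library labelled CncCRNAi, 1.53 FPKM in HttQ138 and 1.25 FPKM in w1118. These values correspond to 10 to 22 fragments per library, and Dl lay between the 7636th and the 8278th gene. No change could be called at this depth. The ratio was 1.22 (0.563 to 2.76) for HttQ138 over w1118, 1.58 (0.799 to 3.09) for Rpn3RNAi over attP2 and 0.624 (0.254 to 1.503) for CncCRNAi+HttQ138 over CncCRNAi, and each interval includes 1. The cells labelled as ISCs and EBs thus carried high esg, Sox100B and Sox21a but little RNA of the gene that tells ISCs from EBs.

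Further along the Notch pathway the receptor and several target genes were well measured. All 19 genes of the pathway list were found. Among the targets, HLHmbeta (E(spl)mbeta-HLH) was abundant in every library at 778 to 1509 FPKM, malpha (E(spl)malpha-BFM) had 227 to 824 FPKM and HLHm3 had 188 to 332 FPKM. In HttQ138 against w1118, 3 of the 12 genes that reached 10 FPKM fell and 0 rose, beside 16% and 12% of all genes. They were the receptor N, with 13.7 FPKM in HttQ138 and 25.2 FPKM in w1118, its coactivator mam, with 7.87 FPKM and 16.7 FPKM in the same order, and malpha. On the log2 scale of FPKM + 1 the highest was the ubiquitin ligase mib1, with 35.3 FPKM in HttQ138 and 26.2 FPKM in w1118.

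In CncCRNAi+HttQ138 against CncCRNAi, 1 of 10 Notch pathway genes fell and 0 rose, beside 12% and 5.16% of all genes. The faller was again malpha, at 227 FPKM against 580 FPKM, or 2.56-fold lower (2.28 to 2.87). In the comparison above it had 428 FPKM in HttQ138 and 824 FPKM in w1118, or 1.92-fold lower (1.76 to 2.11). On the same scale the highest was kuz, the protease that cleaves Notch after ligand binding, with 84.6 FPKM in CncCRNAi+HttQ138 and 60.4 FPKM in CncCRNAi. In Rpn3RNAi against attP2, 2 of 13 rose and 2 fell, beside 14.9% and 17.6% of all genes. Both risers passed 3-fold, where the background is 6.94% of genes: E(spl) (E(spl)m8-HLH) had 11.1 FPKM in Rpn3RNAi and 1.68 FPKM in attP2, and HLHmgamma had 19.3 FPKM and 5.22 FPKM. The ratio was 6.63 for E(spl), with an interval of 2.02 to 24.5 because attP2 held 4 fragments of it, and 3.70 (2.00 to 7.43) for HLHmgamma. The largest fall was that of mam, at 9.15 FPKM in Rpn3RNAi and 19.9 FPKM in attP2.

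Sox100B (FBgn0024288, 3R), a SoxE factor of gut progenitors related to mammalian Sox9 and Sox10, had its lowest values in w1118 and HttQ138. It had 262 FPKM in Rpn3RNAi, 301 FPKM in attP2, 318 FPKM in the library labelled CncCRNAi+HttQ138, 374 FPKM in the library labelled CncCRNAi, 215 FPKM in HttQ138 and 191 FPKM in w1118. In CncCRNAi against w1118 it was the 1 member that rose, at a ratio of 1.96 (1.83 to 2.11), where 19.9% of 5791 genes rose and 8.34% fell. In attP2 against w1118, with a ratio of 1.58 (1.47 to 1.70), it was again the 1 riser, where 15.7% of 5616 genes rose, but it lost this call by the median ratio, under which 0 members rose and 4 fell. Between CncCRNAi+HttQ138 and HttQ138 the ratio was 1.48 (1.38 to 1.58), just under 1.5-fold, and 0 members passed in either direction, against 13.1% of genes higher and 6.58% lower at 1.5-fold and 1.83% and 2.62% at 3-fold.

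The differences of Sox100B between stressed and control libraries were smaller than these. The ratio was 1.13 (1.04 to 1.22) for HttQ138 over w1118, 0.870 (0.812 to 0.932) for Rpn3RNAi over attP2 and 0.851 (0.803 to 0.902) for CncCRNAi+HttQ138 over CncCRNAi. With another control the direction turned in all 3: HttQ138 was at 0.715 (0.667 to 0.767) over attP2 and 1.74-fold lower than CncCRNAi (1.62 to 1.86), Rpn3RNAi was at 1.37 (1.27 to 1.49) over w1118, and CncCRNAi+HttQ138 was at 1.67 (1.55 to 1.795) over w1118. The time at 29 °C differs between attP2 and w1118 along with the genotype, so time and genotype cannot be told apart in that pair.

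Of the 10 Snail and Sox relatives listed beside esg and the Sox members, 2 reached 10 FPKM in some library, Sox14 and sna, and scrt and SoxN were listed at 0 in all 6. Sox14, another Sox-family factor, had 36.9 FPKM in Rpn3RNAi, 36.2 FPKM in attP2, 53.4 FPKM in the library labelled CncCRNAi+HttQ138, 66.0 FPKM in the library labelled CncCRNAi, 26.6 FPKM in HttQ138 and 19.1 FPKM in w1118. Like Sox100B, it was lowest in HttQ138 and w1118, and CncCRNAi over w1118 gave a ratio of 3.45 (2.86 to 4.20), past 3-fold as 4.97% of genes were. The relative sna, the founding member of the Snail family, had 5.75 FPKM in CncCRNAi+HttQ138 and 13.1 FPKM in CncCRNAi, and 11.1 FPKM in Rpn3RNAi and 17.6 FPKM in attP2. It had 3.61 FPKM in HttQ138 and 6.19 FPKM in w1118. The ratio over w1118 was 2.85 (1.86 to 4.47) for attP2 and 2.12 (1.34 to 3.36) for CncCRNAi. The lower sna values in Rpn3RNAi and CncCRNAi+HttQ138 thus depend on the control taken.

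The last member was hdc (FBgn0010113, 3R), which encodes Headcase, a protein that maintains progenitors in several fly tissues. Its values were 28.9 FPKM in Rpn3RNAi, 21.7 FPKM in attP2, 45.1 FPKM in the library labelled CncCRNAi+HttQ138, 47.2 FPKM in the library labelled CncCRNAi, 42.1 FPKM in HttQ138 and 33.5 FPKM in w1118. In the deposited values both libraries kept at 29 °C for 4 days were below all 4 kept for 2 days. This pattern was found in 7.99% of genes, and hdc was the 1 member to show it. The reverse, both above all 4, was seen in 0 members and 8.22% of genes. By the common sum hdc loses the pattern, since Rpn3RNAi, with a summed FPKM of 639046, then stands above w1118, with 797524. The 4-day libraries are also the ones with the attP2 site, so time and genotype cannot be told apart. The stress ratios were 1.26 (1.05 to 1.498) for HttQ138 over w1118, 1.33 (1.07 to 1.65) for Rpn3RNAi over attP2 and 0.956 (0.823 to 1.11) for CncCRNAi+HttQ138 over CncCRNAi. They depended on the control: HttQ138 was at 1.94 (1.60 to 2.36) over attP2, past 1.5-fold, and at 0.893 (0.764 to 1.04) over CncCRNAi, and Rpn3RNAi was at 0.863 (0.703 to 1.05) over w1118. Annotated transcripts of hdc run from 2361 to 14807 nucleotides, and its exons overlap those of a long noncoding RNA gene, so its FPKM depends on how fragments were shared out.

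**Figure D3:**
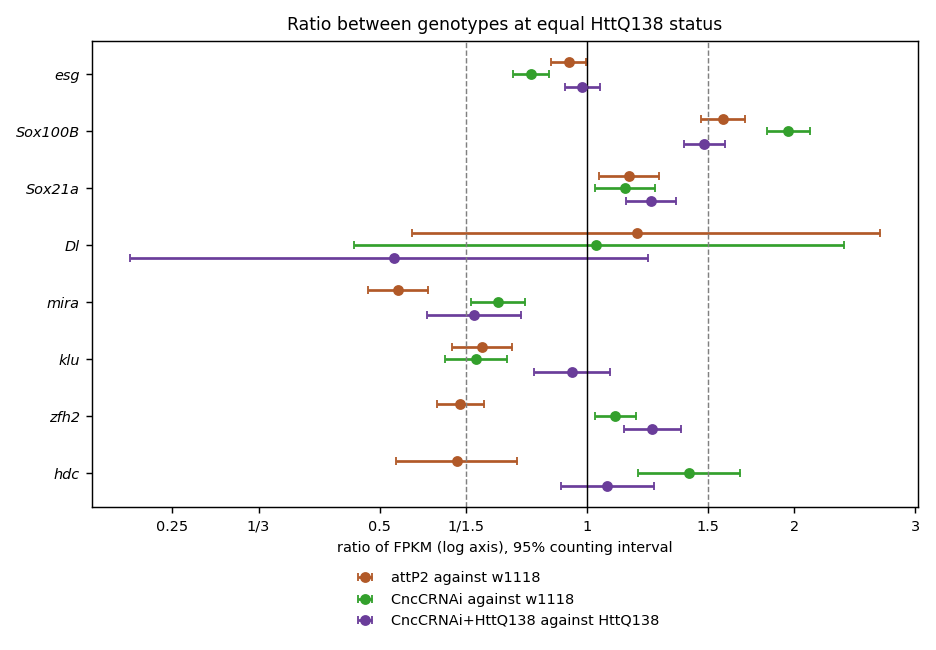
Ratio of FPKM between libraries that differ in genotype but not in HttQ138 (horizontal log axis) for the 8 genes (rows), with points for the ratio, bars for the 95% counting interval and dashed lines at 1.5-fold. Sox100B lies to the right in all 3 comparisons, between 1.48 and 1.96, and in attP2 against w1118 mira, zfh2 and hdc lie left of the lower dashed line. The libraries attP2 and w1118 also differ in time at 29 °C, 4 days against 2 days.

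The control libraries differed in the other members as well. In attP2 against w1118, 3 members fell, mira by 1.88-fold (1.70 to 2.08), hdc by 1.54-fold (1.26 to 1.90) and zfh2 by 1.53-fold (1.41 to 1.65), where 9.22% of genes fell, and 0 passed 3-fold, against 2.55% higher and 2.96% lower. By the common sum mira alone fell, with 25.8% of genes higher and 6.29% lower, and by the median ratio klu fell as well, with 12.2% and 11.7%. This is as many as fell in HttQ138 against w1118, and mira and zfh2 are in both sets. The 2 comparisons share w1118, which has the highest value of esg, mira and klu among the 6 libraries. In CncCRNAi against w1118, klu was at 0.690 (0.623 to 0.766) and mira at 0.743 (0.678 to 0.813), while zfh2 was at 1.10 (1.03 to 1.18), which passed to just below 1 by the median ratio, and hdc at 1.41 (1.19 to 1.67).

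Further regulators of progenitors, 12 genes from the EGF receptor, JAK/STAT and Myc pathways and from gut transcription factors, were all found, and each reached 10 FPKM in each comparison. In HttQ138 against w1118, 5 of the 12 fell and 0 rose, beside 16% and 12% of all genes. They were Egfr, the EGF receptor, with 39.9 FPKM in HttQ138 and 84.2 FPKM in w1118, together with cic, dm (Myc), spen and Stat92E. Egfr was 2.11-fold lower (1.93 to 2.31), and its w1118 value again stood above the other 5 libraries, which had 24.4 to 39.9 FPKM. On the log2 scale of FPKM + 1 the highest was emc, an inhibitor of bHLH factors, with 33.2 FPKM in HttQ138 and 24.4 FPKM in w1118. In CncCRNAi+HttQ138 against CncCRNAi, 3 of 12 fell and 0 rose, beside 12% and 5.16% of all genes, with Egfr the lowest at 24.4 FPKM against 38.8 FPKM. In Rpn3RNAi against attP2, 3 of 12 fell and 0 rose, beside 17.6% and 14.9% of all genes, with pnt, an ETS factor downstream of Egfr, lowest at 7.99 FPKM in Rpn3RNAi and 15.9 FPKM in attP2.

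The 3 genes whose profile over the 6 libraries was most like that of mira were malpha, scramb2 and DnaJ-60, out of 5416 searched. The measure was the root mean square difference of log2(FPKM + 1) after centring each gene on its mean, and it was 0.26 for malpha, 0.30 for scramb2 and 0.31 for DnaJ-60, where mira itself varied by 0.72 around its mean. For zfh2 they were mld at 0.11, CG32676 at 0.12 and cic at 0.12, where zfh2 varied by 0.43. For Dl, whose profile rests on few fragments, they were CG2790 at 0.09, Cdk7 at 0.10 and TppII at 0.10. In these profiles malpha had 428 FPKM in HttQ138 and 824 FPKM in w1118, and cic had 44.3 FPKM and 83.5 FPKM in the same libraries. Over 6 libraries many genes can run alike, and the likeness is a description of these libraries.

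**Figure D4:**
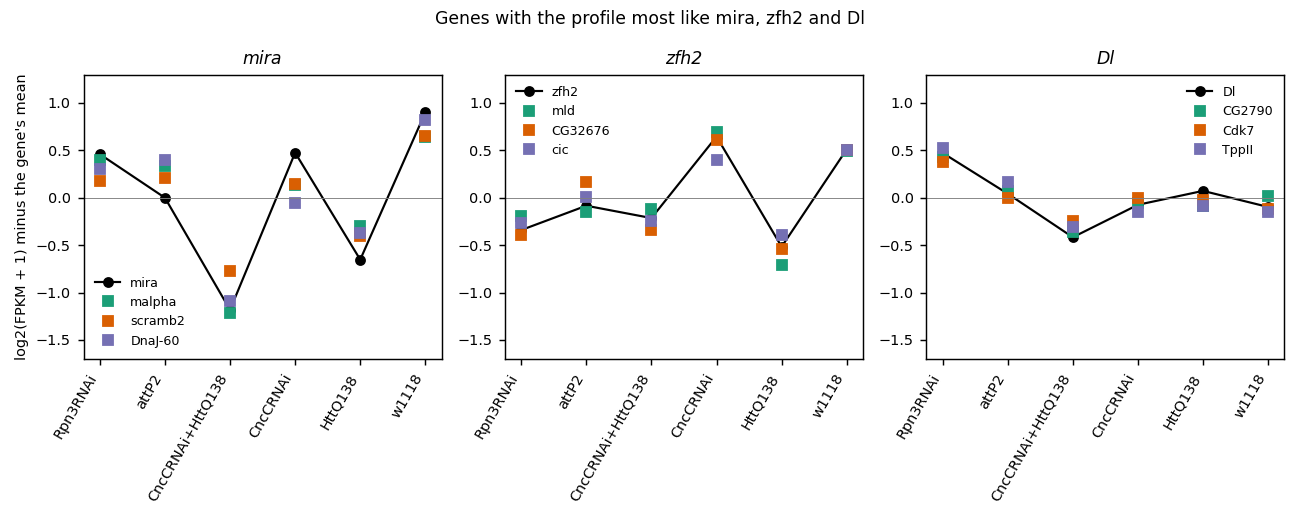
Log2(FPKM + 1) minus the gene's mean over the 6 libraries (vertical axis) in each library (horizontal axis) for mira, zfh2 and Dl (black lines, 1 panel each) and the 3 genes with the nearest profile (squares). The genes near mira are lowest in the library labelled CncCRNAi+HttQ138 and highest in w1118, and the Dl panel spans the smallest range on this scale. The added 1 narrows the Dl panel, since its values are low: as FPKM, Dl ranged 2.91-fold and zfh2 2.29-fold.

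Markers of other cell types were present in unequal amounts, and their part in the results above was not tested. The 13 enterocyte markers found of 16 summed to 11723 FPKM in Rpn3RNAi and 671 FPKM in attP2, to 886 FPKM in CncCRNAi+HttQ138 and 871 FPKM in CncCRNAi, and to 2304 FPKM in HttQ138 and 626 FPKM in w1118, and none was at 0. The highest of them was a digestive protease in Rpn3RNAi, at 3867 FPKM for alphaTry, and the myosin gene Myo31DF in w1118, at 161 FPKM. In Rpn3RNAi against attP2, 9 of the 11 enterocyte markers that reached 10 FPKM rose and 0 fell, beside 14.9% and 17.6% of all genes. Myo31DF, at 135 FPKM against 182 FPKM, and Tsp2A, at 56.9 FPKM against 77.7 FPKM, were lower there by less than 1.5-fold. In HttQ138 against w1118, 8 of the 9 that reached 10 FPKM rose and 0 fell, beside 12% and 16% of all genes. Past 3-fold 6 rose there, beside 3.58% of genes. In CncCRNAi+HttQ138 against CncCRNAi, 1 of 8 rose and 1 fell, beside 5.16% and 12%. The 12 enteroendocrine markers summed to 262 FPKM in Rpn3RNAi and 150 FPKM in attP2, 97.1 FPKM in CncCRNAi+HttQ138 and 261 FPKM in CncCRNAi, and 365 FPKM in HttQ138 and 504 FPKM in w1118, while pros, the defining factor of these cells, was at 0.335 to 0.841 FPKM. The lower sum in HttQ138 follows npf, at 167 FPKM in HttQ138 and 396 FPKM in w1118. Of the 5 enteroendocrine markers that reached 10 FPKM in that pair, 3 rose and 2 fell, beside 12% and 16% of all genes. The largest rise was that of CCHa2, at 21.5 FPKM in HttQ138 and 3.22 FPKM in w1118. The 11 muscle markers summed to 4.92 to 30.4 FPKM with Mhc at 0.252 to 1.05 FPKM, and the 4 hemocyte markers found of 5 to 0.110 to 1.56 FPKM, He being at 0 in 5 libraries. The 2 tracheal markers summed to 6.60 to 19.3 FPKM, with trh at 0 in 2 libraries. The 6 genes of fat body and ovary, yolk proteins among them, summed to 525 FPKM in Rpn3RNAi and 15.1 to 179 FPKM in the other 5. The 8 progenitor genes together came to 881 FPKM in Rpn3RNAi and 917 FPKM in attP2, 934 FPKM in CncCRNAi+HttQ138 and 1022 FPKM in CncCRNAi, and 811 FPKM in HttQ138 and 921 FPKM in w1118.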

How the data were processed

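Total RNA of sorted GFP-positive cells was sequenced as 150 bp paired-end MiSeq reads. The authors mapped them to the Drosophila genome (release given as 5.75) with the Tuxedo suite and deposited 1 FPKM value per gene and library; tool versions, strand use and any further scaling between libraries are not given in the sources used here. FPKM were used as deposited, with 6 comparisons described and none tested. A call was 1.5-fold (or 3-fold) with at least 10 FPKM in the higher library; log2 ratios used FPKM + 1. Depth was found from the steps of low FPKM values, with transcript lengths from Ensembl 115 (genome release 6) less 155 nucleotides, and 80.3% to 87.3% of low values lay within 0.1 of a whole fragment. Intervals for ratios are 95% exact binomial (Clopper-Pearson), intervals for levels exact Poisson, both on fragments at the shortest transcript, the choice that gives the fewest fragments. Of the 15603 gene IDs, 14927 were found in the reference, and esg was matched by symbol. The code, in Python 3.11.15 with numpy 2.4.6, scipy 1.17.1 and pandas 2.3.3, was tested on simulated data. All 8 members are named. For the 3 with the widest range, the 3 genes of nearest profile are named, and from each list of related genes those past 3-fold or else the largest rise and fall, in the comparisons described. Genes named beyond this rule (N, mam, cic, dm, spen, Stat92E, HLHmbeta, HLHm3, scrt, SoxN, alphaTry, Myo31DF, Tsp2A, npf, CCHa2) were chosen after their values were seen. The members and lists were chosen with earlier results of these data known. Alternatives were the scaling, the pseudocount, the minimum, the fold and the control library.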

Additional observations from a re-analysis of the deposited data

Results flagged for a closer look

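The ratio of esg in the library with HttQ138 over its own control lay on opposite sides of 1 in the 2 genetic backgrounds. The log2 ratio was 0.11 for CncCRNAi+HttQ138 over CncCRNAi and -0.14 for HttQ138 over w1118, a difference of 0.25, and for the values as deposited each counting interval lay on its own side of no difference. Rescaled, the esg log2 ratio for HttQ138 over w1118 shrank to -0.07 by the common sum and -0.05 by the median ratio. That for CncCRNAi+HttQ138 over CncCRNAi was 0.11 and 0.20 in the same order. For esg the opposite sides thus held under each scaling, but intervals clear of no difference are given for the deposited values only. Sox100B showed the same in the other direction, with a log2 ratio of -0.23 in the CncCRNAi background and 0.17 in w1118, a difference of -0.40. Neither difference was tested, as each condition is 1 library. All 4 of these ratios are under 1.5-fold, and the esg gate is part of how the cells were chosen. The signs turned when the controls were exchanged. The log2 ratio of HttQ138 over CncCRNAi was 0.13 for esg and -0.79 for Sox100B, and that of CncCRNAi+HttQ138 over w1118 was -0.16 and 0.74. Between CncCRNAi+HttQ138 and HttQ138 the esg ratio was 0.984 (0.928 to 1.04).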

How the results depend on the processing

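Of 224 values of single members recomputed under the alternatives, 168 moved by less than their counting interval, 56 moved further and 0 called values changed sign. Some values short of the call did change sign with another control or scaling. The log2 ratio of Sox100B in HttQ138 went from 0.17 over w1118 to -0.48 over attP2 and -0.79 over CncCRNAi. That of mira in Rpn3RNAi went from 0.46 over attP2 to -0.44 over w1118. The number of members past 1.5-fold changed as follows. For the exchanged controls, the 2-fold threshold and the other minimums, the share of all genes under the same rule was not worked out. Those counts therefore cannot be set against a background. HttQ138 against w1118 had 2 at 2-fold and 2 with attP2 as control, in place of 3. With attP2 these were mira, lower, and hdc, higher, so zfh2 and klu lost their calls. With CncCRNAi as control the count stayed at 3, but these were mira, zfh2 and Sox100B, all lower, and klu lost its call. Rpn3RNAi against attP2 went to 1 with the common sum, 2 with the median ratio, 1 with a minimum of 1 FPKM or with no minimum (Dl), and 2 with w1118 as control, in place of 0. Those with the median ratio, mira and hdc, were higher, and those with w1118 as control, zfh2 and klu, were lower. CncCRNAi+HttQ138 against CncCRNAi had 1 at 2-fold, 3 with the median ratio, with a minimum of 1 FPKM and with no minimum, and 5 with w1118 as control, in place of 2. With w1118 as control mira, zfh2 and klu were lower, and Sox21a and Sox100B were higher. CncCRNAi against w1118 had 2 with the median ratio and 0 at 2-fold, in place of 1. By the median ratio 14.5% of genes were higher there and 12.5% lower. The attP2 count against w1118 was 2 with the common sum and 0 at 2-fold, in place of 4. CncCRNAi+HttQ138 against HttQ138 had 1 with the median ratio, with a minimum of 1 FPKM and with no minimum, in place of 0. By the median ratio 8.57% of genes were higher there and 9.81% lower. The median log2 ratio of the members in Rpn3RNAi against attP2 was 0.092 with the common sum and 0.14 with the median ratio, in place of -0.03, and in attP2 against w1118 it was -0.10 with the common sum, in place of -0.29. The scaling shifts all genes: the median log2 ratio over all genes in attP2 against w1118 was 0.28 with the common sum, 0.01 with the median ratio and 0.09 as deposited, and in Rpn3RNAi against attP2 it was -0.01, 0.03 and -0.13. The ratios of each member to other control libraries were added after seeing the data. Each condition is 1 library, so no replicate could be left out. No paired analysis was possible because each condition has 1 library and the labels give no replicate numbers. The 2 HttQ138 comparisons are given side by side, and an additive fit over their 4 libraries was not run. Depth limits Dl most, at 10 to 22 fragments per library.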
